A study of Mus musculus with 2 samples.

Results

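A small group of nuclei without Cd3 RNA carried Ncr1, which encodes the receptor NKp46, or Klrb1c, Klri2, Pcp4 and Eps8l3, and was examined here among the innate lymphoid nuclei of a gut lymphocyte sort. The members were 82 of the 6614 nuclei in the series, 56 of 4223 in the control library and 26 of 2391 in the knockout library. A nucleus was a member when it had 500 to 4000 gene UMIs (unique molecular identifiers, that is, counted RNA molecules), no UMI of Cd3d, Cd3e or Cd3g, and at least 2 UMIs summed over Ncr1, Klrb1c, Klri2, Pcp4 and Eps8l3, a sum above each of 3 others. Those 3 sums, each over 4 genes, define the comparison nuclei in the same way: A nuclei (Ddc, Mpdz, Prkg2, Cnr2), B nuclei (Tmem132c, H2-Eb1, Tnfsf4, Bend4) and C nuclei (Palld, Fstl4, Krt83, Gzmc). The control library held 28 A, 258 B and 83 C nuclei and the knockout library 13, 181 and 48.

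The study joined RNA and accessible chromatin of single nuclei from colon and small intestine, pooled, of mice 26 to 33 weeks old. Control mice were Zfp362flox/flox and knockout mice CD4creZfp362flox/flox, so both genotypes carried the floxed alleles of Zfp362, a zinc finger gene, and the knockout mice also carried the Cre transgene named for Cd4. The sort took CD4+CD44+ cells without CD62L and left out those with CD8a, CD11c, CD45R or F4/80; the cells are labelled CD4+ effector T cells, and CD3 was not among the sort markers. Tissue came from 7 mice, per genotype or in all, which the design text leaves unclear. Each genotype is a single library, so single animals are not resolved and no test between genotypes is possible. Intervals are at 95% and account for counting error alone.

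Innate lymphoid cells are lymphocytes without rearranged antigen receptors. NKp46 is an activating receptor of natural killer (NK) cells, of ILC1 and of a subset of ILC3. ILC1 depend on the transcription factor T-bet (Tbx21), and both ILC1 and NK cells respond to IL-12 and make interferon gamma. ILC3 respond to IL-23 and make IL-22 in the gut wall. Among ILC3, the lymphoid tissue inducer (LTi)-like cells carry CCR6 and can present antigen on MHC class II, whereas NKp46 positive ILC3 lack CCR6 and can acquire T-bet. The genes below are ordered along these programmes.

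Promoter sequences are shown for 4 genes whose chromatin is described further below, because Ncr1 names the members, Ifng and Xcl1 are type 1 cytokine genes, and Ccr6 marks LTi-like ILC3. Each line holds the 250 bases before the start site, 5′ to 3′ on the gene's strand, from RefSeq on GRCm38.p6. Capitals mark matches on either strand to TGTGGT (bound by RUNX factors) and TCACACC (a T-box core, read as its reverse complement on the other strand). The windows are chr7:4337474-4337723 (plus strand) for Ncr1, chr10:118440796-118441045 (plus) for Ifng, chr1:164935523-164935772 (minus) for Xcl1 and chr17:8235793-8236042 (plus) for Ccr6.
Ncr1: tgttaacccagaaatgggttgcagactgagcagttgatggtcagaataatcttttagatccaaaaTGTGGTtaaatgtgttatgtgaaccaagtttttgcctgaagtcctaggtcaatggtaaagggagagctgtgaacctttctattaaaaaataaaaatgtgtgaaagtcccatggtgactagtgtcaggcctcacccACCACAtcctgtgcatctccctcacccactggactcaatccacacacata
Ifng: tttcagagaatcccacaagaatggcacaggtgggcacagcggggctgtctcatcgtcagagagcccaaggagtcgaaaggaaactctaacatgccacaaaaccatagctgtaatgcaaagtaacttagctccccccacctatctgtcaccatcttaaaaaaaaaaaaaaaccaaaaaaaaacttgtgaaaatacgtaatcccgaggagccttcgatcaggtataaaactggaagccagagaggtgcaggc
Xcl1: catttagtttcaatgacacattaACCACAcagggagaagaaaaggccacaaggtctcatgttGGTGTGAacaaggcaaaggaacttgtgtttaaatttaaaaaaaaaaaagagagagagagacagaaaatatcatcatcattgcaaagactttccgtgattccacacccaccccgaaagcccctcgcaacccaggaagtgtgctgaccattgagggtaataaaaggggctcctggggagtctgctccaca
Ccr6: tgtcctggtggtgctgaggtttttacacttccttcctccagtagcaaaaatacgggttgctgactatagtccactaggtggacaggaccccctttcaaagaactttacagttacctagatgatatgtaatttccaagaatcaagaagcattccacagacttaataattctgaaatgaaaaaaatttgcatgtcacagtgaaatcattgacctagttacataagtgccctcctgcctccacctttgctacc

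The Ncr1 window held TGTGGT on its own strand 185 bases and on the other strand 50 bases before the start. The Xcl1 window held the T-box core 188 bases and TGTGGT 227 bases before the start, both on the other strand. The Ccr6 and Ifng windows held neither motif. Of 32851 promoter windows of the same length, 14.0% held TGTGGT and 3.33% the T-box core, so these matches are a description of the letters and not of bound sites.

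Members made up 3.40% (exact binomial interval 2.58 to 4.40%) of the 1645 control nuclei without Cd3 UMIs in the UMI range and 2.91% (1.91 to 4.24%) of the 892 in the knockout. The same sum was passed by 7 of 2030 Cd3-positive nuclei (0.345%) in control and 9 of 882 (1.02%) in the knockout. Members had a median of 2180 and 2219 UMIs, against 2140 and 2126 in the A, B and C nuclei and 1982 and 2133 in the Cd3-positive nuclei. The median share of mitochondrial UMIs was 0.358% and 0.227% in members, 0.143% and 0.0606% in the A, B and C nuclei, and 0.324% and 0.161% in the Cd3-positive nuclei; its part in the differences below was not tested. The 2 libraries shared 11 barcodes, of which 0 were members. Library totals were 10803590 and 9348999 gene UMIs, of which members held 128765 and 60395.

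The 5 genes that chose the members were carried unevenly by them. In control, UMIs of Ncr1 were found in 25 members, of Klri2 in 24, of Klrb1c in 19, of Pcp4 in 16 and of Eps8l3 in 10. In the knockout, the same genes were found in 20, 7, 8, 8 and 5 members. Ncr1 summed to 334 UMIs per 1000000 gene UMIs (CPM) in control members (43 UMIs) and 546 CPM in knockout members (33 UMIs), against 1.85 and 1.99 CPM in the Cd3-positive nuclei. Klri2, a lectin-like receptor, summed to 497 and 430 CPM, and Klrb1c, which encodes NK1.1, to 210 and 215 CPM. UMIs of at least 2 of the 5 genes were seen in 31 of 56 and 18 of 26 members. Ncr1 and Klri2 were found together in 10 control members and Ncr1 and Pcp4 in 8, but Klri2 and Pcp4 in only 2. In the knockout these pairs were found in 5, 6 and 0 members. These values chose the members and are given as a description. Since 31 control and 6 knockout members had no Ncr1 UMI, the name NKp46 positive rests on the 5 genes together and not on Ncr1 in each nucleus.

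Members near the edge of the rule were common. The sum was exactly 2 in 23 control and 10 knockout members, and 27 and 17 further nuclei with none of the other 3 sums had a sum of 1. Klrk1, which encodes the activating receptor NKG2D and was not in the rule, had 443 and 437 CPM at a sum of 1, 1044 and 549 CPM at a sum of 2, and 513 and 389 CPM at 3 or more. In the nuclei outside all sets with a sum of 0 it had 80.5 and 91.2 CPM. Trac, the constant gene of the T-cell receptor alpha chain, had 254 and 209 CPM at a sum of 0, 141 and 154 CPM at 1, 39.4 and 0 CPM at 2, and 25.6 and 0 CPM at 3 or more. Nuclei with a sum of 1 lay between their neighbours for Trac; for Klrk1 they lay far above the nuclei with a sum of 0, below control members and level with knockout members. Cytokine genes did not follow one order along the sum. Xcl1 had 2880 CPM at a sum of 1, 276 CPM at 2 and 551 CPM at 3 or more in control, and 283, 1783 and 1402 CPM in the knockout. In control Csf2 had 906, 296 and 397 CPM and Ifng 262, 59.1 and 89.7 CPM in the same order, so the control nuclei just outside the rule had more of these 3 genes than the members. In the knockout Csf2 had 514, 640 and 493 CPM and Ifng 103, 0 and 26.0 CPM. Values for 6 genes are plotted by this sum.

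**Figure D1:**
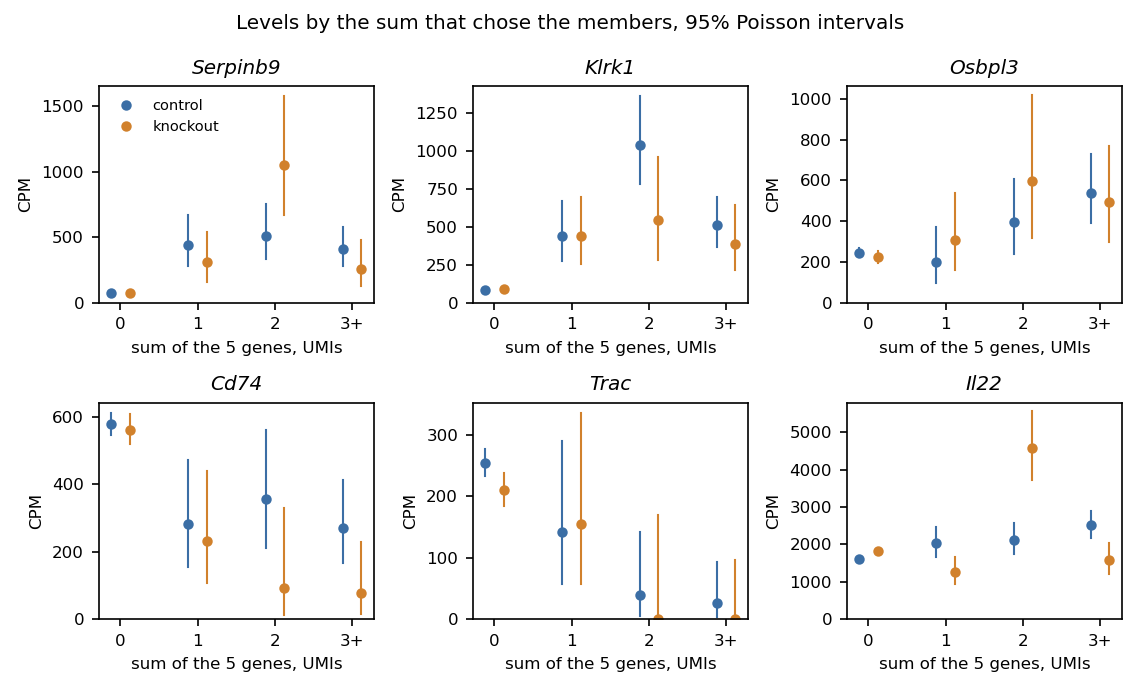
CPM of 6 genes that the rule did not use, with 95% Poisson intervals, in Cd3-negative nuclei with a sum of 0 (in no set), 1 (other sums 0), 2 and 3 or more UMIs of the 5 genes, for each library. Klrk1 was 80.5 and 91.2 CPM at a sum of 0 and 443 and 437 CPM at a sum of 1, and Trac was 254 CPM at a sum of 0 and 25.6 CPM at 3 or more in control.

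Genes of NK receptors and of the type 1 programme were higher in members than in the A, B and C nuclei. Of 15 genes of a type 1 ILC list with at least 10 UMIs in control, 8 were at least 2-fold higher and 0 lower, with a median log2 ratio of 2.59, where over all 7640 genes 13.4% were as much higher and 14.3% lower and the median was 0.04. In the knockout 11 of 17 were higher and 0 lower, with a median of 2.15 against 0.08 over 6305 genes, of which 17.5% were higher and 20.3% lower. Of 13 and 12 NK receptor genes 9 and 8 were higher and 1 and 0 lower, with medians of 1.70 and 1.78. The rule chose nuclei on NK receptor RNA, so these counts describe the members and support nothing by themselves.

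Among the receptors, Klrk1 had 93 UMIs in 40 control members and 27 UMIs in 14 knockout members, which is 722 and 447 CPM. The A, B and C nuclei had 30.9, 115 and 148 CPM in control and 0, 90.4 and 167 CPM in the knockout. Its log2 ratio of members over the 3 sets was 2.63 (2.20 to 3.06) and 2.15 (1.42 to 2.83). Hcst, which encodes the NKG2D adaptor DAP10, had 217 and 199 CPM and ratios of 1.70 (0.97 to 2.37) and 1.85 (0.72 to 2.83). Cd226, an activating receptor also carried by T cells, had 210 and 298 CPM in members and 184 and 224 CPM in the Cd3-positive nuclei; its ratios over the A, B and C nuclei were 2.66 and 3.07. Klrc1, which encodes NKG2A, had 14 UMIs in control members and 0 in the A, B and C nuclei, at least 29.5-fold higher, but 2 against 1 UMI in the knockout (3.88, -0.12 to 10.02). Klrb1b was abundant in all innate sets, at 1320 and 1457 CPM in members, with ratios of only 0.71 (0.46 to 0.95) and 0.87 (0.51 to 1.20), and 59.7 and 64.2 CPM in the Cd3-positive nuclei. Fcer1g, a signalling adaptor of NK and innate lymphoid cells, was at 536 and 381 CPM with ratios of 0.05 and -0.00, so the adaptors did not move as a group.

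Genes that guard or fill cytotoxic granules were higher too, but the killing molecules themselves were scarce. Of 10 and 9 granule and death receptor genes 7 and 5 were at least 2-fold higher and 0 and 1 lower. Of all genes, 13.4% and 17.5% were as much higher and 14.3% and 20.3% lower. Serpinb9, which inhibits granzyme B, had 450 and 546 CPM in members and 0 UMIs in A nuclei of either library, with ratios over the 3 sets of 3.70 (3.03 to 4.41) and 3.53 (2.75 to 4.35). Its relative Serpinb6b had 318 and 364 CPM and ratios of 2.97 and 2.52. Ctsw, the protease cathepsin W of cytotoxic lymphocytes, had 388 and 248 CPM and ratios of 5.23 (4.21 to 6.59) and 3.14 (2.01 to 4.28); it was found in 29 and 13 members, and no single member held more than 6% and 13% of its UMIs. Nkg7, a granule membrane protein, had 155 and 132 CPM and ratios of 5.21 and 2.84, close to the 164 and 153 CPM of the Cd3-positive nuclei. Against this, Prf1 (perforin) had 5 and 2 UMIs, Gzmb 3 UMIs in 1 nucleus of each library, and Gzma 7 UMIs in 2 control members and 0 in knockout members. Without the member that held 86% of them, the control ratio of Gzma went from 2.04 to -0.27. Eomes, the T-box factor of NK cells, had 0 UMIs in members, A, B and C nuclei of both libraries, which allows up to 23.3 and 49.7 CPM in members.

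The master regulator and the cytokine of the type 1 programme were present at low counts. Tbx21 had 9 UMIs in 7 control members and 11 UMIs in 7 knockout members, 69.9 and 182 CPM. It had 2 UMIs over all 369 A, B and C nuclei in control and 7 over 242 in the knockout, which gives ratios of 4.58 (2.56 to 8.08) and 3.76 (2.30 to 5.40). The Cd3-positive nuclei had 87.5 and 96.1 CPM. Ifng had 10 UMIs in 7 control members, 77.7 CPM with a ratio of 4.73 (2.75 to 8.21), but 1 UMI in knockout members, for which the ratio was 0.64 (-5.33 to 3.04). Il12rb2, the IL-12 receptor subunit, had 47 UMIs in 10 control and 19 UMIs in 6 knockout members, 365 and 315 CPM, with 32% and 58% of them in 1 nucleus. Its ratios were 6.06 (4.76 to 8.15) and 2.65 (1.71 to 3.53), the latter 1.5 without that nucleus, and the Cd3-positive nuclei had more, 452 and 653 CPM. Il18r1, the IL-18 receptor, was shared with the other innate sets at 831 and 1142 CPM and ratios of 0.49 and 0.77.

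Of the secreted factors, Xcl1, the chemokine that attracts cross-presenting dendritic cells, had 57 UMIs in 11 control members and 93 in 13 knockout members, 443 and 1540 CPM. Its ratios were 3.24 (2.63 to 3.88) and 2.54 (2.15 to 2.93). C nuclei had 98.9 CPM in control and 1255 CPM in the knockout, where 4 of 48 C nuclei held all of these UMIs. The summed level of knockout C nuclei was thus near that of knockout members, but 13 of 26 members held Xcl1. Csf2, which encodes GM-CSF, had 357 and 546 CPM, ratios of 1.85 and 2.26, and 30.5 and 50.8 CPM in the Cd3-positive nuclei. All 20 control UMIs of Ccl5 came from 3 members and 55% of them from 1 (2.59, 1.63 to 3.54). The 33 members with a sum of 3 or more had 0 UMIs, so their ratio of -2.04 had an interval that reached up to 1.00. Knockout members had 2 UMIs. Ccr9, the small-intestinal homing receptor, had 8 UMIs in 7 control members and 17 in 7 knockout members, with ratios of 2.84 (1.19 to 4.55) and 5.95 (4.15 to 9.39). Cxcr6 was at 559 and 729 CPM with ratios of 0.88 and 1.82.

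**Figure D2:**
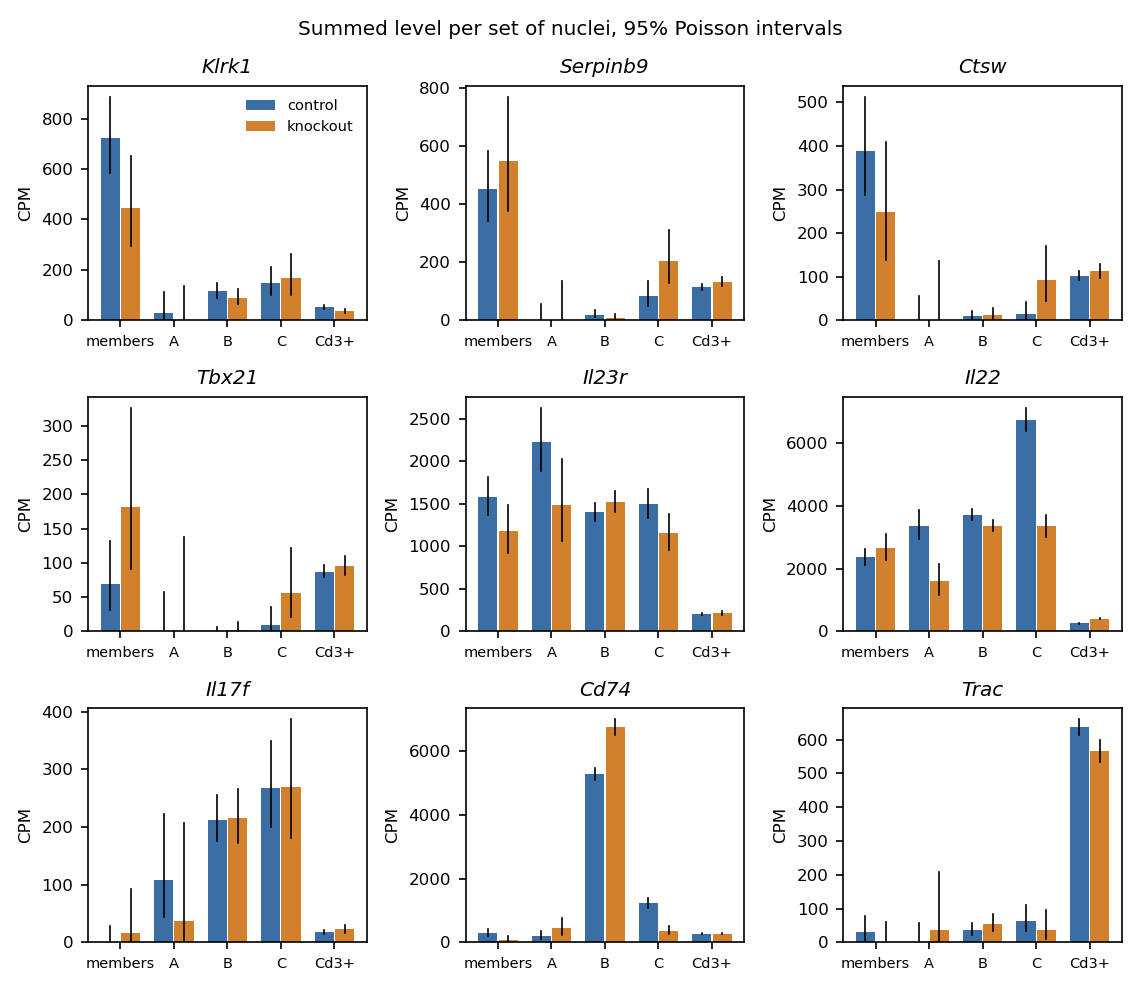
CPM of 9 genes in members, A, B and C nuclei and Cd3-positive nuclei, as bars from 0 with 95% Poisson intervals, for the control and knockout libraries. Klrk1, Serpinb9 and Ctsw were highest in members, Il23r and Il22 were far above the Cd3-positive nuclei, Il17f was at 0 and 1 UMI in members, and Trac was near 0 in all innate sets and at 636 and 565 CPM in Cd3-positive nuclei.

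The 2-fold counts of an ILC3 list went both ways and lay near the shares over all genes. Of 28 and 27 list genes with at least 10 UMIs, 3 and 3 were 2-fold higher and 5 and 5 lower, where over all genes 13.4% and 17.5% were higher and 14.3% and 20.3% lower, and the list medians were 0.03 and -0.10. Intervals lay above 0 for 6 and 3 of the genes and below 0 for 7 and 3. For all 7640 and 6305 genes they lay above 0 for 722 and 542 and below 0 for 470 and 340. Rora, a nuclear receptor of innate lymphoid cells, had 4225 and 4322 CPM in members and ratios of 0.02 (-0.12 to 0.15) and -0.05 (-0.24 to 0.13). Il23r, the IL-23 receptor, had 203 UMIs in 44 of 56 control members and 71 UMIs in 19 of 26 knockout members, 1577 and 1176 CPM, with ratios of 0.08 (-0.14 to 0.30) and -0.29 (-0.67 to 0.06), and 208 and 217 CPM in the Cd3-positive nuclei. Kit, the stem cell factor receptor, and Il7r had ratios of 0.23 and -0.03, and of -0.09 and 0.33. Id2, which innate lymphoid cells require, was at 1142 and 911 CPM with ratios of 0.30 and 0.38.

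Il22 had 304 UMIs in 31 control members and 161 UMIs in 15 knockout members. Its 2361 CPM in control lay below A (3374 CPM), B (3723 CPM) and C nuclei (6745 CPM), with a ratio of -0.91 (-1.09 to -0.74). In the knockout, 2666 CPM lay above A nuclei (1598 CPM) and below B (3368 CPM) and C (3346 CPM), with a ratio of -0.29 (-0.54 to -0.06). The Cd3-positive nuclei had 257 and 411 CPM. Il17f, an ILC3 cytokine, was nearly missing from members: it had 0 UMIs in control members, at least 9.35-fold lower than the 177 UMIs in the A, B and C nuclei, and 1 UMI in the knockout (-3.14, -9.03 to -1.21). Il1r1, the IL-1 receptor, had ratios of -0.69 (-1.10 to -0.32) in control and -0.10 (-0.61 to 0.34) in the knockout.

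Genes of LTi-like cells were lower in members. Of all genes, 13.4% and 17.5% were at least 2-fold higher and 14.3% and 20.3% lower. Of 19 list genes measured in each library, 0 were 2-fold higher and 11 (control) and 12 (knockout) were lower, with medians of -1.21 and -2.07. With genes at 0 UMIs set to their bound the medians were -1.10 and -1.68. Ccr6 had 8 UMIs in 5 control members and 0 in knockout members. The ratio was -1.83 (-3.14 to -0.90) in control, and the knockout members were at least 4.16-fold lower than the A, B and C nuclei. Nrp1, neuropilin-1, had 124 CPM in control (ratio -2.28, -3.14 to -1.61) and 0 UMIs in the knockout, at least 13.8-fold lower. Tnfsf11, which encodes the inducer cytokine RANKL, had 474 and 298 CPM with ratios of -1.21 and -1.68. Ccr7, Cd81 and Cntn1, a neural cell adhesion molecule, had ratios of -1.92, -2.52 and -1.10 in control and -3.16, -3.01 and -2.32 in the knockout; against A nuclei alone control Ccr7 was at 0.93. Cd4, which LTi-like cells share with T cells, did not follow, at 225 and 248 CPM with ratios of -0.35 (-0.98 to 0.19) and 0.08 (-0.84 to 0.81).

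MHC class II genes were lower as well, with all 6 measured genes in control and all 7 in the knockout at least 2-fold lower by the fitted ratio. The share of all genes as much lower was 14.3% and 20.3%. The class II medians were -2.63 and -2.64, and with genes at 0 UMIs set to the bound that 3 counts allow, -2.33 and -0.03. B nuclei were chosen partly on H2-Eb1 and held most of these UMIs. Cd74, the invariant chain, had 303 and 82.8 CPM in members, 201 and 446 CPM in A nuclei, 5273 and 6745 CPM in B nuclei and 1236 and 372 CPM in C nuclei. Its ratios over the 3 sets together were -3.66 (-4.17 to -3.22) and -5.82 (-7.58 to -4.73). Members were therefore below B and C nuclei in both libraries, while A nuclei lay below control members and above knockout members. H2-Aa, a class II alpha chain, had 210 and 33.1 CPM in members, 61.9 and 74.3 CPM in A nuclei and 341 and 27.9 CPM in C nuclei, so control members were above A nuclei and knockout members about level with C nuclei.

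Genes named by their size put other molecules beside these. The 10 genes lowest in control members, all at 0 UMIs there, were Unc5c, Cacnb2, Il17f, Tnip3, Pdcd1, Zc3h12c, Aldh2, Dok6, Hmgn3 and Slc41a3. Unc5c, a netrin receptor, had 353 and 304 UMIs in the A, B and C nuclei and 0 in members of either library, at least 18.6-fold and 11.5-fold lower. Cacnb2, a calcium channel subunit, was at least 11.4-fold and 5.52-fold lower but came mostly from B nuclei (201 of 216 control UMIs). Tnip3, an inhibitor of NF-κB signalling, was at least 7.55-fold and 2.53-fold lower and was also at 0 in A nuclei. Pdcd1, which encodes PD-1, was at least 5.23-fold and 2.04-fold lower. Of the 10, 2 had UMIs in knockout members besides Il17f: Aldh2 and Slc41a3, with 2 UMIs each.

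Under the same conditions, the 15 genes highest in control members over the A, B and C nuclei had log2 ratios of 2.40 or more. All 15 were above 0 in the knockout. Genes that failed a condition are not among them, whatever their ratio. Besides Klrk1, Ctsw, Serpinb9, Serpinb6b and Trbc1, which are described with their groups, the 15 held 10 further genes. Gm36723, a gene of unknown role, had 652 and 695 CPM and ratios of 4.04 (3.45 to 4.69) and 3.11 (2.46 to 3.76), with 31.2 and 60.8 CPM in the Cd3-positive nuclei. Slc7a6os had 730 and 861 CPM and ratios of 2.91 and 2.64, also above the 95.1 and 113 CPM of the Cd3-positive nuclei. Osbpl3, an oxysterol-binding protein, and Skap1, a T-cell adaptor, had ratios of 3.43 and 2.66 in control and 2.56 and 1.98 in the knockout, but the Cd3-positive nuclei carried both at 401 and 1012 CPM in control. Irf7, the interferon regulatory factor, had 179 and 166 CPM and ratios of 3.26 and 3.01. Gimap3, 4930503L19Rik, Frmd5, Ppp1r14c and Syne2 had ratios of 2.48, 2.45, 3.11, 3.04 and 2.40 in control and 2.83, 3.56, 1.47, 1.92 and 2.10 in the knockout. Frmd5 had 0 UMIs in the 9 knockout members without T-cell receptor UMIs.

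**Figure D3:**
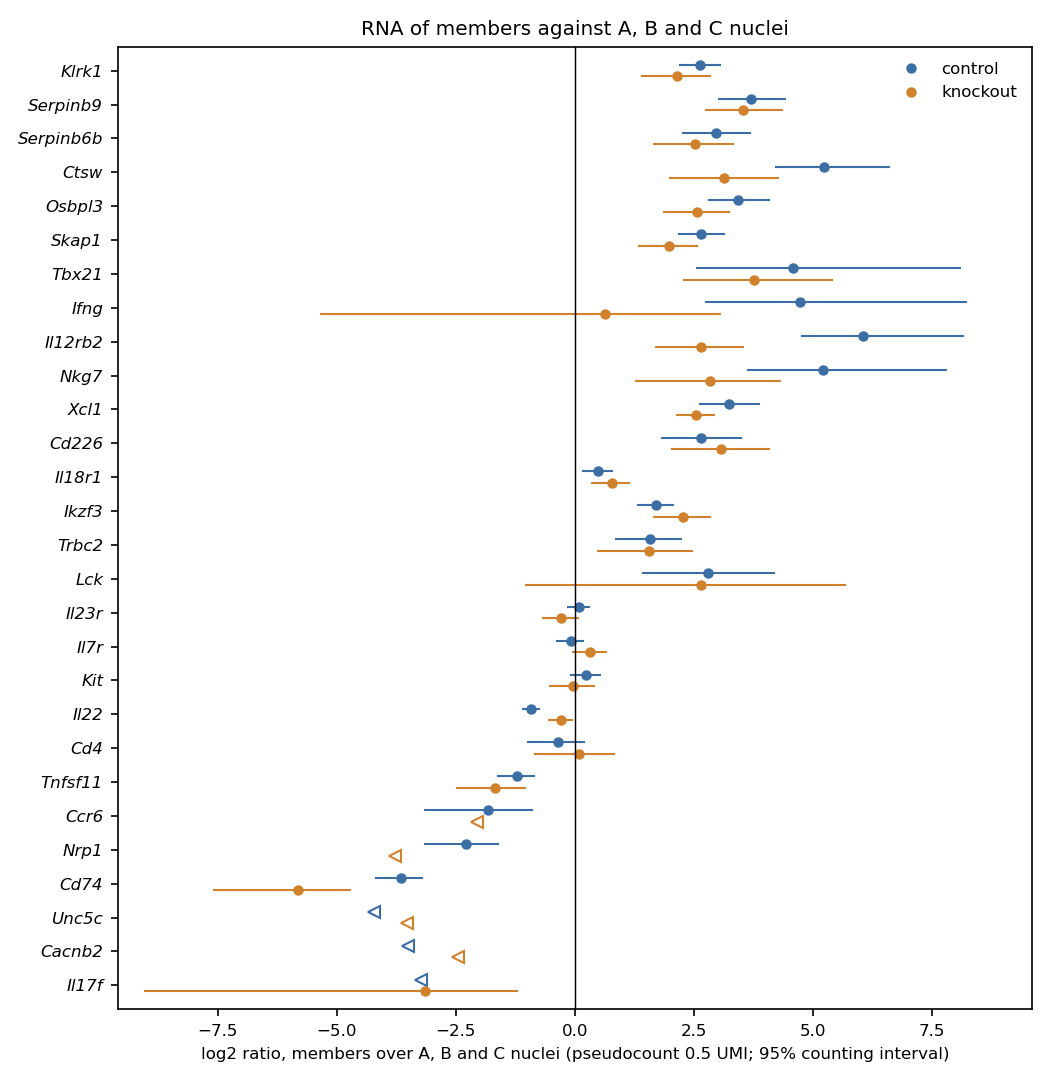
Log2 ratio of members over A, B and C nuclei for 28 genes, with 95% counting intervals, in the control and knockout libraries; open triangles mark genes with 0 UMIs in members, drawn at the bound that 3 counts allow. NK receptor, granule and type 1 genes lie above 0, Il23r, Il7r and Kit near 0, and Tnfsf11, Ccr6, Nrp1, Cd74, Unc5c, Cacnb2 and Il17f below 0.

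Counted over all genes with at least 30 UMIs in both sets together, 379 of 4454 were at least 2-fold higher in control members (8.51%) and 469 lower (10.5%). The knockout library gave 385 of 3294 higher (11.7%) and 513 lower (15.6%). Of the 379 genes higher in control, 222 had 30 UMIs in the knockout, 187 of these were above 0 there, 118 at least 2-fold and 13 at least 2-fold lower. Of the 469 lower ones, 311 were measured, 262 were below 0, 180 at least 2-fold lower and 4 at least 2-fold higher. The same rule chose the members in both libraries, so nothing is read from this overlap.

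Because the sort label is CD4+ effector T cells, T-cell genes were read as a check on the members. Trac had 4 UMIs in 3 control members and 0 in knockout members, 31.1 and 0 CPM against 636 and 565 CPM in the Cd3-positive nuclei. Trbc1 and Trbc2, the beta-chain constant genes, were present. Trbc1 had 272 and 381 CPM in members and 529 and 512 CPM in Cd3-positive nuclei, and its ratios over the A, B and C nuclei were 2.50 (1.80 to 3.20) and 1.16 (0.41 to 1.81). In the knockout, A nuclei had more Trbc1 than members, 1041 CPM, and with A, B and C nuclei weighted equally the ratio was -0.21. Trbc2 had 225 and 215 CPM, ratios of 1.58 and 1.56, and 701 and 604 CPM in the Cd3-positive nuclei. Lck, the proximal kinase of the receptor, had 11 and 2 UMIs, and Cd247, the zeta chain, 7 UMIs in 4 members and 1 UMI. Of the T-cell genes with at least 10 UMIs, 9 of 19 were at least 2-fold higher than in the A, B and C nuclei and 1 lower in control (13.4% and 14.3% over all genes), and 7 of 15 higher and 3 lower in the knockout (17.5% and 20.3%). Intervals lay above 0 for 8 and 6 of them and below 0 for 0 and 0, with medians of 0.88 and 0.76. For all 7640 and 6305 genes they lay above 0 for 722 and 542 and below 0 for 470 and 340. Summed over the 21 T-cell genes of the list that the files hold, members had 3549 and 3626 CPM, the A, B and C nuclei 1601 to 2863 CPM in control and 1729 to 3569 CPM in the knockout, and the Cd3-positive nuclei 11968 and 12225 CPM. The part of T-cell RNA in the differences was not tested; 22 control and 9 knockout members had no UMI of Trac, Trbc1 or Trbc2, and in these Klrk1 was at 956 and 633 CPM, Serpinb9 at 346 and 244 CPM and Il23r at 1546 and 1851 CPM. Of 16 myeloid marker genes 15 and 16 were at 0 in members, of 14 B and plasma cell genes 8 and 12, of 16 epithelial genes 12 and 13 and of 14 stromal and endothelial genes 13 and 13.

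Transcription factors were also counted as a list. Of 33 and 34 measured factors 6 and 5 were at least 2-fold higher and 1 and 3 lower, with medians of 0.51 and 0.21. Of all genes, 13.4% and 17.5% were as much higher and 14.3% and 20.3% lower. Intervals lay above 0 for 16 and 10 of the factors and below 0 for 3 and 2. For all 7640 and 6305 genes they lay above 0 for 722 and 542 and below 0 for 470 and 340. Ikzf3 (Aiolos), a factor of the Ikaros family, had 707 and 646 CPM with ratios of 1.70 (1.32 to 2.07) and 2.27 (1.66 to 2.84), close to the 634 and 764 CPM of the Cd3-positive nuclei. Ikzf2 (Helios) had 1173 and 828 CPM with ratios of 1.28 and 0.85. Zbtb16 (PLZF), a factor of innate lymphoid precursors, had 326 and 414 CPM with ratios of 1.06 (0.51 to 1.56) and 1.52 (0.79 to 2.17), and 44.9 and 96.1 CPM in the Cd3-positive nuclei; the 9 knockout members without T-cell receptor UMIs held 0 of its UMIs. Gata3 had a ratio of 1.51 in control, where 41% of its UMIs were in 1 nucleus and the ratio without it was 0.81, and of 0.33 (-0.85 to 1.23) in the knockout.

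Over all genes 13.4% and 17.5% were at least 2-fold higher and 14.3% and 20.3% lower, with medians of 0.04 and 0.08. Their intervals lay above 0 for 722 of 7640 and 542 of 6305 genes and below 0 for 470 and 340. Of 23 and 22 cytokine receptor genes 5 and 4 were higher and 2 and 5 lower, with intervals above 0 for 9 and 5, below 0 for 2 and 2, and medians of 0.49 and 0.09. Of 16 and 15 effector cytokine genes 4 and 5 were higher and 6 and 5 lower. Of 15 and 14 homing genes 3 and 3 were higher and 3 and 2 lower, and of 18 Notch and TGF-beta genes in each library 1 and 3 were higher and 3 and 3 lower. Of an NK cell list, 4 of 5 measured genes were higher and 0 lower in control, and 0 of 4 higher and 1 lower in the knockout. Its medians were 1.84 and -0.38, the latter 0.08 with genes at 0 UMIs set to their bound; the difference between the libraries was not tested, and 12 and 13 of its 18 genes were at 0 UMIs in members.

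Immediate-early genes, which cell handling as well as stimulation can induce, were lower in members than in A and B nuclei. Jun had 2120 and 1556 CPM, against 5572 and 6059 CPM in A nuclei, 4696 and 4802 CPM in B nuclei and 1409 and 1933 CPM in C nuclei, so in control members were above C nuclei. Its ratios over the 3 sets together were -0.89 (-1.08 to -0.72) and -1.45 (-1.77 to -1.16). Fosb and Jund had ratios of -0.70 and -0.54 in control and -1.20 and -1.15 in the knockout. Of the 16 genes of the list, 0 in control and 6 in the knockout were at least 2-fold lower, and 0 and 1 higher. Of all genes, 14.3% and 20.3% were as much lower and 13.4% and 17.5% higher. In control the 2-fold counts of the list therefore lay below the shares over all genes. Intervals lay below 0 for 7 and 8 of the 16 genes and above 0 for 2 and 2, with medians of -0.34 and -0.54. For all 7640 and 6305 genes they lay below 0 for 470 and 340 and above 0 for 722 and 542. The medians over all genes were 0.04 and 0.08.

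Members differed among themselves along the axis from Il22 to Tbx21 and Il12rb2, most clearly in control. The 31 control members with an Il22 UMI held 2 of the 47 Il12rb2 UMIs and 0 of the 9 Tbx21 UMIs, although they were 31 of 56 members. The 10 control members with an Il12rb2 UMI held 6 of 304 Il22 UMIs and 5 of 9 Tbx21 UMIs. The 7 control members with a Tbx21 UMI held 0 Il22 UMIs but 20 Il12rb2 UMIs, of which 15 lay in 1 nucleus. Klrk1 and Ctsw were found on both sides: Klrk1 was at 501 CPM in members with Il22 and 790 CPM in those with Il12rb2, and Ctsw at 386 and 416 CPM. Median depth was 2169 UMIs in the members with Il22 and 2309 in those with Il12rb2.

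In the knockout the separation was partial. Il22 and Il12rb2 were found together in 2 members, as in control, and the 6 members with Il12rb2 held 13 of 161 Il22 UMIs. The 7 members with Tbx21, however, held 5 Il22 UMIs, 29 of 71 Il23r UMIs and only 1 of 19 Il12rb2 UMIs. These subsets were formed after the values were seen, each holds few nuclei, and no test was made.

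Members with and without an Ncr1 UMI are set side by side, without a test of their difference. Klrk1 was at 634 CPM in the 25 control members with Ncr1 and 792 CPM in the 31 without, and at 396 and 645 CPM in the 20 and 6 knockout members. Serpinb9 was at 264 and 598 CPM in control and 625 and 242 CPM in the knockout. Il22 was at 2236 and 2460 CPM in control, and at 3230 and 483 CPM in the knockout. All 20 control Ccl5 UMIs lay in members without Ncr1.

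Accessible chromatin was measured in the same nuclei and was not used by the rule, although the nuclei were chosen on RNA of some of the genes. Peak values were read as fragments and scaled to 1000000 fragments in peaks (FPM), and a locus is the gene with 10 kb on either side. At Ncr1 (chr7:4337724-4345164, plus strand), members had 11 control and 7 knockout fragments, 51.0 (25.4 to 91.2) and 61.0 (24.5 to 126) FPM. The A, B and C nuclei together had 5 and 6 fragments, 3.60 and 4.62 FPM, and the Cd3-positive nuclei 0.156 and 1.52 FPM. The log2 ratios were 3.75 (2.18 to 5.70) and 3.71 (1.93 to 5.57). All 11 control fragments and 6 of the 7 in the knockout lay in a peak over the start of the gene (chr7:4337144-4337991 and chr7:4337168-4338079), which covers the printed promoter. Among control members, the 31 without an Ncr1 UMI had 7 fragments (59.3 FPM, 23.8 to 122) and the 25 with one had 4 (40.9 FPM, 11.1 to 105). The 6 knockout members without an Ncr1 UMI had 0 fragments and the 20 with one had 7. The nuclei with a sum of 1 had 3 and 1 fragments, 29.9 and 12.7 FPM. The other genes of the sum differed less at their loci. Eps8l3 had ratios of 0.85 (0.21 to 1.42) and 1.15 (0.33 to 1.84). Klrb1c had 0.61 (-0.05 to 1.18) and 0.08 (-1.08 to 0.95), and Klri2 0.48 (-0.37 to 1.19) and 0.91 (-0.21 to 1.78). Pcp4, with 2 and 0 member fragments, had 0.49 and -0.20, and its intervals included 0.

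At Tbx21 (chr11:97098071-97115331, minus strand) members had 26 and 14 fragments, 120 and 122 FPM, against 36.7 and 40.8 FPM in the A, B and C nuclei, with ratios of 1.73 (0.97 to 2.42) and 1.62 (0.62 to 2.45). The Cd3-positive nuclei had 95.1 and 87.8 FPM. The peak with most member fragments was intergenic, at chr11:97123250-97124164 in control and chr11:97123225-97124123 in the knockout, with 9 and 5 fragments against 19 and 16 in the A, B and C nuclei. Members with an Il22 UMI had 9 control fragments at the locus (79.8 FPM, 36.5 to 152) and those without had 17 (165 FPM, 96.1 to 264); in the knockout both had 7 (91.5 and 183 FPM), and the intervals of the pairs overlapped. At Ifng members had 8 and 2 fragments, 37.1 and 17.4 FPM, against 2.16 and 3.85 FPM, with ratios of 3.97 (2.04 to 6.65) and 2.36 (-1.21 to 4.79). In control 6 of the 8 lay in the peak over the Ifng start, where the A, B and C nuclei had 1. The Il12rb2 locus had ratios of 1.10 (-0.07 to 2.07) and 1.52 (0.13 to 2.60).

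At Il22 members had 10 and 6 fragments, 46.3 and 52.3 FPM, with ratios of -0.18 (-1.36 to 0.72) and 0.17 (-1.43 to 1.26) and 14.8 and 10.4 FPM in the Cd3-positive nuclei. At Ccr6 members had 14 and 5 fragments, 64.9 and 43.6 FPM, against 131 and 120 FPM, with ratios of -0.97 (-1.91 to -0.23) and -1.33 (-3.10 to -0.21). In the peaks over the printed Ccr6 promoter members had 0 fragments in both libraries and the A, B and C nuclei 18 and 20. At Xcl1 members had 10 control fragments against 7 in all A, B and C nuclei (3.17, 1.66 to 4.83), but 1 against 13 in the knockout (0.33, -5.61 to 2.54), where the Xcl1 RNA was higher.

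The Cd3e locus went partly against the absence of Cd3 RNA. Members had 12 and 5 fragments there, 55.6 and 43.6 FPM, against 14.4 and 20.8 FPM in the A, B and C nuclei (48.5 FPM in the knockout C nuclei) and 72.8 and 64.5 FPM in the Cd3-positive nuclei, with ratios of 1.97 (0.78 to 3.05) and 1.18 (-0.66 to 2.47). In control, 8 of the 12 lay in the peak at chr9:44997890-44998784, at the gene's 3′ end. That peak had 37.1 FPM in control members and 11.4 FPM in the Cd3-positive nuclei. In the peak over the Cd3e start members had 1 and 0 fragments where the Cd3-positive nuclei had 242 and 114.

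**Figure D4:**
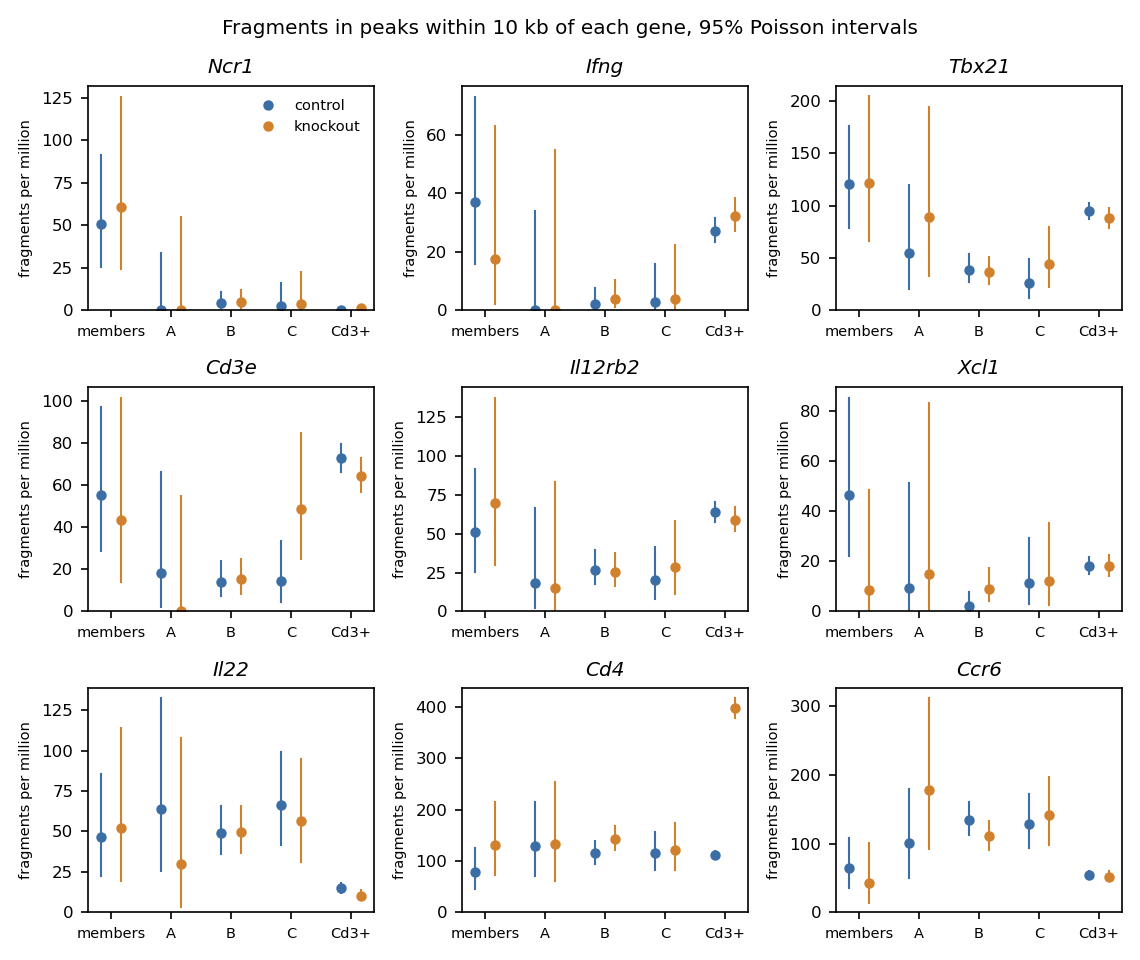
FPM in peaks within 10 kb of 9 genes, as points with 95% Poisson intervals, in members, A, B and C nuclei and Cd3-positive nuclei of each library. Members were above all other sets at Ncr1 (51.0 and 61.0 FPM), above the A, B and C nuclei at Tbx21 (120 and 122 FPM), near them at Il22 (46.3 and 52.3 FPM) and below them at Ccr6 (64.9 and 43.6 FPM).

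Over all peaks with at least 30 fragments, 619 of 15432 (4.01%) were at least 2-fold higher in control members and 1339 (8.68%) lower, and in the knockout 983 of 13665 (7.19%) and 1486 (10.9%). Of the 619, 396 overlapped a measured knockout peak, of which 259 (65.4%) were above 0 and 61 (15.4%) at least 2-fold higher there, against 55.0% and 7.19% of all knockout peaks. The 10 highest control peaks with a partner had ratios of 2.04 to 2.46, and 5 of their 10 partners were at least 2-fold higher. The first lay at chr10:99392738-99393597, in an intron of B530045E10Rik and 129507 bases from the start of Dusp6, with 17 fragments in members and 20 in the A, B and C nuclei (2.46, 1.43 to 3.46; knockout 1.63, 0.11 to 2.79). The second, at chr6:128796055-128796966, lay 6840 bases from the start of Klrb1c, with 13 and 17 fragments (2.31, 1.14 to 3.43; knockout 1.72, -0.45 to 3.25). Over the whole Klrb1c locus the ratios were 0.61 and 0.08, with intervals that included 0. Another peak, with a partner of similar size, lay in an intron of Tnfrsf1a, the TNF receptor, at chr6:125352777-125354022 (2.14, 1.15 to 3.08; knockout 1.79, 0.27 to 2.98).

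The comparison of genotypes asks whether members of the knockout library differ from those of the control. Zfp362 itself had 0 UMIs in members of both libraries, 6 and 1 UMIs in the A, B and C nuclei, and 52 and 13 UMIs in the Cd3-positive nuclei, so its RNA does not check the genotype of members. Around Zfp362 members had 20 and 10 fragments, 92.7 and 87.1 FPM. In the intron of Cd4 (control peak chr6:124884880-124885797, knockout peak chr6:124884910-124885787) members had 3 and 7 fragments, 13.9 and 61.0 FPM; the Cd3-positive nuclei had 34.6 and 193 FPM and the A, B and C nuclei 10.1 and 19.2 FPM. How far Cre acted in members was not tested.

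Of 1333 genes with at least 30 UMIs over all members, 52 (3.9%) were at least 2-fold higher and 50 (3.75%) lower in knockout members, 102 (7.65%) in all. Intervals of 213 genes excluded 0. Of these, 165 had no nucleus with over 20% of the UMIs and were of no excluded class, 80 higher and 85 lower. The highest was Irf2bp2, a transcriptional co-regulator, with 10 UMIs in control and 20 in knockout members, 77.7 and 331 CPM (2.06, 0.93 to 3.35), while the A, B and C nuclei had a ratio of -0.25 (-0.71 to 0.19). Frmd4a, Tshz1, Pxn, Tnks2, Strn3, Ppfia1, Qrich1, Gatad2a and Rbm6 followed with ratios of 1.85, 1.58, 1.52, 1.46, 1.35, 1.34, 1.31, 1.18 and 1.17. Gatad2a was at -0.17 (-1.87 to 1.17) among members without T-cell receptor UMIs. Only for Strn3 and Rbm6 did the A, B and C nuclei lie above 0 with their interval, at 0.34 and 0.40. The lowest was Usp37, a deubiquitinase, with 35 and 2 UMIs, 272 and 33.1 CPM (-2.74, -6.14 to -1.08; 0.09 in the A, B and C nuclei). Epc1, Clic1, S100a6, Myl12a, Snx14, Snx3, Herc4, Thoc1 and Tgfbr1 followed at -2.40, -2.12, -2.12, -1.93, -1.67, -1.57, -1.52, -1.47 and -1.47. Clic1, S100a6 and Myl12a were lower in the A, B and C nuclei of the knockout too, at -0.87, -0.56 and -0.54. Thoc1 was at 0.029 with nuclei thinned to 500 UMIs. Knockout members held 2 to 5 UMIs of each of the 10.

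**Figure D5:**
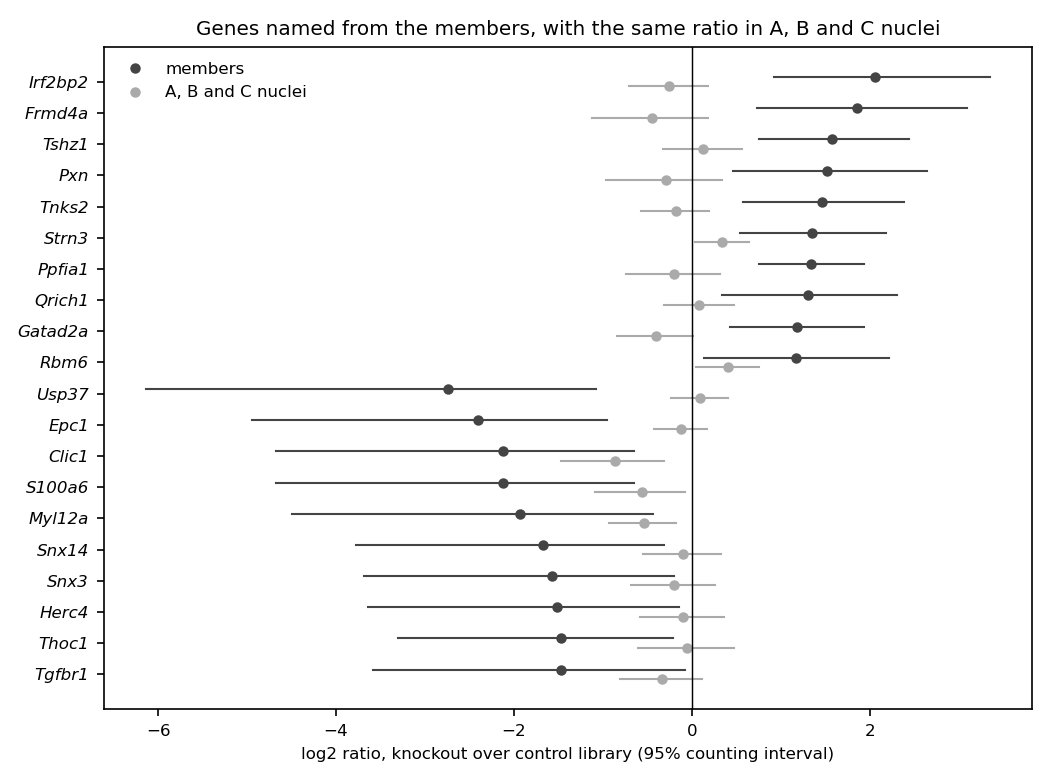
Log2 ratio of knockout over control library, with 95% counting intervals, for the 10 highest and 10 lowest genes in members (dark) and the same genes in A, B and C nuclei (grey). Irf2bp2 (2.06) and Usp37 (-2.74) mark the ends in members, where the A, B and C nuclei had -0.25 and 0.09.

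Chemokine genes of the lists are given first, with their dependence on the members taken. Xcl1 was at 443 CPM in control and 1540 CPM in knockout members (1.79, 1.31 to 2.30; 0.60, -0.25 to 1.40, among members without T-cell receptor UMIs), and the summed A, B and C nuclei differed in the same direction (2.49, 1.98 to 3.06). Few of those nuclei held Xcl1: 0 of 28 A, 8 of 258 B and 2 of 83 C nuclei in control. In the knockout 0 of 13 A, 6 of 181 B and 4 of 48 C nuclei held it. Nuclei just outside the rule, with a sum of 1, had the opposite order, 2880 CPM in control and 283 CPM in the knockout. Members with a sum of 2 (276 and 1783 CPM) and of 3 or more (551 and 1402 CPM) kept the order of all members. The Xcl1 difference therefore changed direction only below the threshold of the rule. Ccl5 had 20 UMIs in 3 control and 2 in 1 knockout member (-1.94, -5.37 to -0.19), with 55% of the control UMIs in 1 nucleus. Among members with a sum of 3 or more it had 0 control and 2 knockout UMIs. The ratio there was 3.34 by the pseudocount, with an interval from -1.39 and no upper limit. Ccl4, a chemokine of activated lymphocytes, had 4 UMIs in control and 46 in knockout members, but 67% of the latter lay in 1 nucleus, and the ratio of 4.46 was 2.95 without it. Ccr9 had 8 and 17 UMIs (2.13, 0.89 to 3.60), of which the 9 knockout members without T-cell receptor UMIs held 0. Areg, the growth factor amphiregulin, had 9 and 27 UMIs, with 56% of the knockout UMIs in 1 nucleus (2.63, 1.55 to 3.95), and a ratio of -0.12 (-3.67 to 2.16) among members without T-cell receptor UMIs. Cd74 had 39 and 5 UMIs (-1.75, -3.57 to -0.53), opposite to the 0.41 (0.34 to 0.49) of the A, B and C nuclei. The immediate-early genes Jun, Fosb, Jund and Atf3 had ratios of -0.44, -0.53, -0.72 and -0.70 with intervals below 0. For Jun the direction depended on the members taken: among those without T-cell receptor UMIs the ratio was 0.75 (0.20 to 1.28). Of the 16 in the list 2 were at least 2-fold lower and 0 higher, where over 1950 genes with at least 20 UMIs 5.85% were lower and 5.44% higher.

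Of the genes that mark the members, Ncr1 had a ratio of 0.72 (0.01 to 1.40; -0.19 with nuclei thinned to 500 UMIs), Klrk1 of -0.67 (-1.37 to -0.06), Serpinb9 of 0.29 (-0.38 to 0.92), Il22 of 0.18 (-0.11 to 0.46; -0.17 without the nucleus with most Il22 UMIs, 1.74 without T-cell receptor UMIs and -1.62 with Ncr1 left out of the sum), and Tbx21 of 1.37 (-0.03 to 2.83). Of 19 measured ILC3 genes 0 were higher and 1 lower, and of 6 NK receptor genes 0 and 0. Of 15 type 1 ILC genes 4 were higher and 1 lower, with intervals above 0 for 6 and below 0 for 3 and a median of 0.46. Over all 1950 genes 5.44% were higher and 5.85% lower, with intervals above 0 for 144 and below 0 for 115 and a median of -0.03. Genotype and library cannot be told apart in any of these values.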

How the data were processed

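RNA and accessible chromatin were measured together in nuclei of 1 library per genotype. The authors deposited raw UMI counts per gene and raw counts per peak, counted on build mm10 (per the submitters' processing notes) by the pipeline that the file headers name, Cell Ranger ARC 2.0.1. Filters, the gene annotation, the use of strand and the treatment of near-identical genes (Serpinb9 and Serpinb6b, Trbc1 and Trbc2, the Klr and H2 families) are not given in the sources at hand. The files hold 32285 genes, and 83851 (control) and 85738 (knockout) peaks that differ between libraries. Peak counts were even for 91.7% and 90.7% of values, so a count was divided by 2 and rounded up to fragments. UMIs were summed per set of nuclei and divided by the set's total (CPM). The log2 ratio used a pseudocount of 0.5 UMI, and its interval is the exact conditional 95% interval. Poisson and exact binomial (Clopper-Pearson) intervals were used for levels and shares, and all cover counting error only. A gene was called at 2-fold with at least 30 UMIs, or 10 for lists (20 between genotypes). A value against 0 UMIs was bounded with 3 counts over the set.

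Members, lists and tests were chosen with earlier results of these data known. Named genes were the listed genes, the 15 highest and 10 lowest in control members, the 10 highest and 10 lowest between genotypes (at least 30 UMIs, interval without 0, no nucleus above 20% of the UMIs; rule, mitochondrial, sex-linked and antigen receptor segment genes left out), Zfp362 and Cd4, and the 10 highest control peaks. Some of these items are not reported here. No doublet caller was run. Ratios and calls were tested on simulated data. Genes were placed with GENCODE vM21. Python 3.11.15, numpy 2.4.6, scipy 1.17.1, pandas 2.3.3 and matplotlib 3.10.9 were used. Alternatives changed the rule, the comparison nuclei, the depth, the pseudocount and the minimum count.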

Additional observations from a re-analysis of the deposited data

Results flagged for a closer look

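Of 71 named genes, Irf2bp2 was the single gene whose interval lay below 0 in control members and above 0 in knockout members relative to the A, B and C nuclei of the same library. The log2 ratio was -0.89 (-2.05 to -0.02) in control, where members held 10 UMIs, and 1.42 (0.60 to 2.14) in the knockout, where they held 20. The difference between the libraries was not tested. With nuclei thinned to 500 UMIs the control ratio was 0.22 (-1.91 to 1.61).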

How the results depend on the processing

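No paired analysis was possible because each genotype has 1 library. The medians of the type 1 ILC and ILC3 lists stayed within their intervals under every alternative run. The share of members (control, knockout) was 2.01% and 1.79% with a sum of at least 3, and 2.42% and 1.86% without Trac, Trbc1 or Trbc2 UMIs. It was 1.79% in the knockout without Ncr1 in the sum and 2.49% in control without Klri2. Genes higher and lower numbered 145 and 88 (control) and 113 and 47 (knockout) against A nuclei alone, and 193 and 173, and 122 and 114, against C nuclei alone. They numbered 118 and 190, and 100 and 163, when thinned to 500 UMIs. With a minimum of 100 UMIs they numbered 101 and 157, and 90 and 153, and with 10 UMIs 1023 and 1092, and 1101 and 1277. Genes past 2-fold between genotypes numbered 46 without T-cell receptor UMIs, 17 when thinned, 4 with a minimum of 100 and 650 with 10. Higher peaks (control, knockout) numbered 991 and 1726 with a sum of at least 3, and 26 and 1, 352 and 652, and 127 and 46 against A, B and C nuclei alone. With minimums of 100 and 10 fragments they numbered 1 and 23, and 4013 and 5058. They were 1011 in control without T-cell receptor UMIs and 1656 in the knockout without Ncr1. Fewer features pass a higher minimum by construction. The same holds for a smaller comparison set and for thinned nuclei, because the minimum applies to the counts of both sets together. Otherwise the cause was not tested.

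Among single genes and loci, alternatives added after seeing the data gave 2862 values inside the interval of the reported one, 270 outside it and 28 on the other side of 0; the last are counted only where the reported interval excluded 0, so Il22 between genotypes, for example, is not among them. For members over the A, B and C nuclei these were Ccl5 in control at -2.04 (sum of at least 3), -1.20 (no T-cell receptor UMI) and -2.48 (without Klrb1c); without T-cell receptor UMIs, Id2 in control at -0.040, and Frmd5 and Zbtb16 in the knockout at -1.01 and -2.51; against A nuclei alone, Ccr7, Cd74 and H2-Aa in control at 0.93, 0.55 and 1.62, and Il22, Trbc1, Trbc2 and Ikzf2 in the knockout at 0.73, -1.45, -0.11 and -0.34. Against C nuclei alone they were Jun in control at 0.59 and H2-Aa in the knockout at 0.35; with equal weights, Trbc1 in the knockout at -0.21; when thinned, Il18r1 and Irf2bp2 in control at -0.074 and 0.22; and without 1 nucleus, Gzma in control at -0.27. Between genotypes, Gatad2a, Ccr9, Areg and Jun were at -0.17, -1.06, -0.12 and 0.75 without T-cell receptor UMIs, and Thoc1 and Ncr1 at 0.029 and -0.19 when thinned; Ccl5 was at 3.34 (sum of at least 3), 3.58 (no T-cell receptor UMI) and 3.40 (without Klrb1c). The Ccl5 intervals in these alternatives all included 0. The cause of the changes of sign was not tested. The 82 members and 1 library per genotype limit every value: a gene at 0 UMIs may reach 23.3 CPM in control and 49.7 CPM in knockout members.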
